A study of Homo sapiens with 18 samples.

Results

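The 10 genes described here encode the core of the RNA polymerase I machinery and the abundant scaffold proteins of the nucleolus: POLR1A, POLR1B, POLR1E, UBTF, RRN3, TAF1D, NPM1, NCL, NOLC1 and TCOF1. They were chosen by name for these roles, with earlier results of these data known, and all 10 were among the 17017 genes counted in the series. All 10 passed the filter on low counts in both kinds of library. The cells were MDA-MB-231, an established human line of triple-negative breast carcinoma, transduced with lentivirus that carried either a scramble hairpin or 1 of 2 short hairpin RNAs against fibrillarin (FBL), the nucleolar enzyme that adds methyl groups to ribosomal RNA. All cultures, controls included, were selected in 1 µg/ml puromycin for 96 h and received 100 µg/ml cycloheximide for 5 min before lysis. The treatments are labelled SC, SH2 and SH3. SC was read as the scramble control, and the labels do not tie SH2 or SH3 to a hairpin sequence. For each treatment there were 3 replicates of cytoplasmic input RNA and 3 of ribosome footprints, the RNA fragments of single ribosomes left after RNase I digestion, which gives 18 libraries in 6 groups. The labels do not say whether replicates were separate cultures, so p-values measure the spread between these samples, which may be technical.

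RNA polymerase I transcribes the ribosomal RNA genes inside the nucleolus and makes nothing else in quantity. UBTF opens the ribosomal DNA and bends it, the SL1 complex sits on the promoter, and RRN3 joins the polymerase to SL1. The transcript is then processed and packed with ribosomal proteins in the surrounding nucleolus, whose bulk is held by a few very abundant proteins, among them nucleophosmin (NPM1) and nucleolin (NCL).

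FBL RNA, as counts scaled to library size (CPM, the unit of all levels below), averaged 388 ± 36.4 in SC, and SH2 and SH3 had 5.67 ± 5.09 and 3.49 ± 0.612 (SD, n = 3 each), so 1.46% and 0.898% of the control level was left. Input libraries held 23469830 to 27629488 counts and footprint libraries 1662705 to 6098648, with the largest footprint library in SC and the smallest in SH3. Any 1 of the 10 genes had 761 to 46048 counts in an input library and 62 to 13088 in a footprint library. Among mesenchymal markers of the line, VIM, which encodes vimentin, was at 4965 CPM or more in the SC input libraries. ESR1 and PGR, the oestrogen and progesterone receptors, had at most 2 counts in any input library. Other genes listed beforehand as low were not all near 0. In SC input RNA, CDH1 averaged 0.321 CPM, EPCAM 5.66, GATA3 8.03 and ERBB2 95.3. The share of input counts from mitochondrial genes was 6.31% to 10.7% in SC, 2.52% to 3.30% in SH2 and 3.63% to 5.08% in SH3. The share from ribosomal protein genes was 7.59% to 8.58% in SC, 5.37% to 5.56% in SH2 and 5.34% to 6.26% in SH3. These shares moved with the treatment, and their part in the results below was not tested.

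Many mRNAs of the translation apparatus begin with a C followed by an unbroken stretch of pyrimidines, the terminal oligopyrimidine tract through which their translation is regulated. The RefSeq start site table (GRCh38.p14) held 11 windows for 7 of the 10 genes, and in 2 windows the annotated first base opened a run of at least 5 pyrimidines that starts with C. Of all 35116 windows in the RefSeq set, 4.07% did so, and 5.16% of the 15123 windows of genes tested in input RNA. The run was 8 bases in NPM1 and 11 bases in TAF1D. These sequences are shown because NPM1 and TAF1D were 2 of the genes that fell with a hairpin. POLR1A, which rose, and nucleolin (NCL), whose rise passed only in SH2 RNA, are shown beside them and have no such run. Windows of POLR1B, whose RNA rose, and of UBTF and RRN3, which did not pass against SC, also lack a run and are not shown. POLR1E, which also fell with SH2, and NOLC1 and TCOF1 had no window. A link between such runs and the changes was not tested. Each window is 30 bases before the annotated start and the first 20 bases from it, in the direction of the gene. Capitals mark the run, or the annotated first base alone where that base is a purine.
NPM1: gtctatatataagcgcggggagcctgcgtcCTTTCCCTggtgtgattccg
TAF1D: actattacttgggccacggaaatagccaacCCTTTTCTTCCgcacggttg
NCL: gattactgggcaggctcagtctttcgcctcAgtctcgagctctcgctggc
POLR1A: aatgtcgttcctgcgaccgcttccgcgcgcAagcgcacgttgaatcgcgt
The windows lie at chr5:171387819-171387868 on the plus strand for NPM1, and on the minus strand at chr11:93741476-93741525 for TAF1D, chr2:231464465-231464514 for NCL and chr2:86105867-86105916 for POLR1A. A second annotated NPM1 start begins with G. Which start these cells used is not known from gene counts.

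In input RNA, 7 of the 10 genes passed the test against SC in SH2 (edgeR's quasi-likelihood test, adjusted p under 0.05 over all genes tested), 4 of them higher and 3 lower. The same test called 61.4% of all 12710 genes tested, 31.1% higher and 30.4% lower. In SH3, 5 of 10 passed, 4 higher and 1 lower, against 53% of all genes tested, 27.8% higher and 25.2% lower. With 10 genes, these shares are near the background of each comparison. The median log2 fold change of the 10 genes was 0.13 in SH2 and 0.23 in SH3, against 0.012 and 0.034 over all genes tested. The controls are common to both comparisons, so the changes of SH2 and SH3 share them.

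In footprints, 6 of 10 genes passed in SH2, of which 3 rose and 3 fell, against 44.2% of the 10345 genes tested (21% rose and 23.2% fell). In SH3, 3 of 10 passed and all of them rose, against 35.9% (16.9% rose and 19% fell). The median log2 fold change was -0.15 in SH2 and 0.26 in SH3, against -0.0042 and -0.014 over all genes tested. POLR1A and NOLC1 rose in both measures with both hairpins, POLR1E, TAF1D and NPM1 fell in both measures with SH2, and UBTF and RRN3 did not pass against SC in either measure. The SH2 calls of TAF1D in both measures and of NOLC1 in footprints were lost when some single libraries were left out, as given below.

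**Figure D1:**
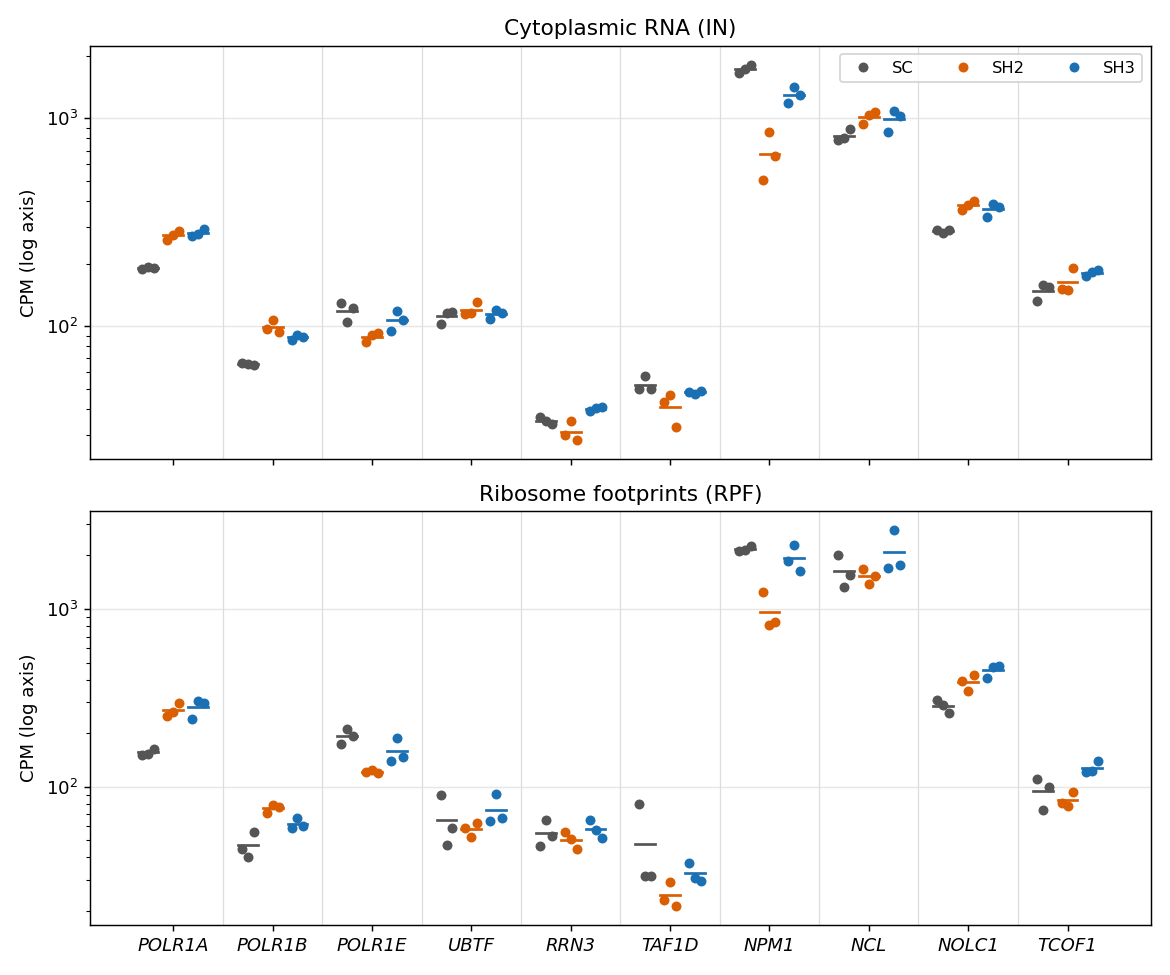
Level of each gene in every library, in CPM on a log axis, for input RNA and for ribosome footprints. Each point is 1 library of SC, SH2 or SH3, and POLR1A stands above SC in all hairpin libraries in both panels while NPM1 in SH2 stands below all SC libraries.

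POLR1A is the largest subunit of RNA polymerase I and forms the active site together with POLR1B. POLR1A RNA was 189, 192 and 191 CPM in SC, 261, 274 and 285 in SH2 and 272, 278 and 295 in SH3. Every hairpin library was above every control library. Its RNA rose 1.43-fold in SH2 (log2 0.52, SE 0.084, adjusted p = 0.000112) and 1.48-fold in SH3 (log2 0.56, SE 0.084, adjusted p = 8.83e-05). POLR1A footprints were 152, 154 and 162 CPM in SC, 248, 262 and 296 in SH2 and 242, 304 and 295 in SH3, again with no overlap between the hairpins and the control. Footprints rose 1.72-fold in SH2 (adjusted p = 0.000238) and 1.80-fold in SH3 (adjusted p = 0.000208), which is the largest rise among the 10 genes in either measure. The 2 hairpins did not differ detectably: the log2 difference was -0.04 in RNA (SE 0.083, adjusted p = 0.711) and -0.06 in footprints (SE 0.13, adjusted p = 0.775).

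POLR1B, the second largest subunit and the partner of POLR1A in the catalytic core, had 66.4, 65.6 and 64.9 CPM of RNA in SC, 96.8, 107 and 93.3 in SH2 and 86.1, 90.2 and 88.4 in SH3. The 3 groups did not overlap, with SH2 highest and SC lowest. POLR1B RNA rose 1.51-fold in SH2 (log2 0.59, SE 0.087, adjusted p = 4.86e-05) and 1.34-fold in SH3 (log2 0.43, SE 0.087, adjusted p = 0.000963). POLR1B footprints were 44.8, 40.0 and 55.7 CPM in SC, 70.7, 79.0 and 77.4 in SH2 and 58.5, 66.8 and 59.9 in SH3. The SC libraries lay below both hairpin groups, with SC replicate 3 close to SH3. Footprints rose 1.60-fold in SH2 (adjusted p = 0.00188), while in SH3 the log2 change of 0.39 (SE 0.16) did not pass (adjusted p = 0.061, or 0.0284 without SC replicate 3).

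POLR1E forms, with POLR1G, the small heterodimer that docks on the polymerase and helps initiation and elongation. POLR1E RNA was 129.7, 104 and 122 CPM in SC, 83.4, 91.1 and 92.5 in SH2 and 94.5, 118 and 108 in SH3. The SH2 libraries lay below all SC libraries, and the SH3 libraries overlapped SC. RNA fell to 0.750 of control in SH2 (log2 -0.42, SE 0.11, adjusted p = 0.00442), and in SH3 the log2 change was -0.15 (SE 0.11, adjusted p = 0.255). POLR1E footprints were 174, 210.2 and 194 CPM in SC, 121, 124 and 119 in SH2 and 139.9, 189 and 146 in SH3. They fell to 0.632 of control in SH2 (log2 -0.66, SE 0.14, adjusted p = 0.00148), and SH3, whose mean lay between the other groups, had a log2 change of -0.28 (SE 0.14, adjusted p = 0.142). In SH2 the catalytic subunits rose and POLR1E fell.

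The other 10 subunits of RNA polymerase I, including those it shares with RNA polymerases II and III, were set beside these 3. In SH2, 3 of the 10 rose and 6 fell in RNA, and 1 rose and 7 fell in footprints, where 31.1% and 30.4% of all genes tested rose and fell in RNA and 21% and 23.2% in footprints. In SH3, 1 rose and 5 fell in RNA, and 1 rose and 4 fell in footprints, against 27.8% and 25.2% of all genes in RNA and 16.9% and 19% in footprints. The counts of the further gene lists below stand against these same shares. Their median log2 change in RNA was -0.37 in SH2 and -0.32 in SH3, and in footprints -0.64 and -0.38. POLR1C, part of the assembly platform shared with RNA polymerase III, rose in RNA in SH2 (log2 0.41, adjusted p = 0.00163) and SH3 (0.26, adjusted p = 0.0318), and the SH3 call was lost without SC replicate 2 or 3 or any single SH3 replicate (log2 0.16, adjusted p = 0.225 without SH3 replicate 2). POLR1D, its partner, rose in footprints by 0.60 on the log2 scale with SH2 (adjusted p = 0.014) and with SH3 (adjusted p = 0.020). The SH3 call of POLR1D was lost without SC replicate 2 (adjusted p = 0.0502), SH3 replicate 2 (0.0806) or SH3 replicate 3 (0.0749). POLR1F, the stalk subunit to which RRN3 binds, fell in both measures with both hairpins: its log2 change was -0.82 (SE 0.11, adjusted p = 2.98e-05) and -0.84 (SE 0.11, adjusted p = 4.42e-05) in RNA, and -0.77 and -1.25 in footprints (adjusted p = 0.00358 and 0.000252). POLR1G, the partner of POLR1E, fell in SH2 in RNA (-0.45, adjusted p = 0.0091) and footprints (-0.63, adjusted p = 0.0197). The footprint call of POLR1G was lost without SC replicate 1 or 3 or SH2 replicate 1 or 2, with adjusted p up to 0.110.

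Of the 5 subunits shared by all 3 nuclear polymerases (POLR2E, POLR2F, POLR2H, POLR2K and POLR2L), 4 fell in RNA with each hairpin, and in footprints 5 fell in SH2 and 3 in SH3. These 5 are part of the list of 10 counted above and were not a list of their own. Of all genes tested, 30.4% in SH2 and 25.2% in SH3 fell in RNA, and 23.2% and 19% in footprints. POLR2E had log2 changes of -0.61 and -0.39 in RNA in SH2 and SH3 (adjusted p = 3.34e-05 and 0.00185) and of -0.86 and -0.66 in footprints (adjusted p = 0.000223 and 0.00229). POLR2H RNA changed by -1.16 in SH2 (adjusted p = 1.6e-06) and -0.44 in SH3 (adjusted p = 0.00491). POLR1H, a zinc ribbon subunit that takes part in RNA cleavage, rose in RNA by 0.75 on the log2 scale in SH2 (adjusted p = 0.000271). Its footprint log2 change in SH2 was -0.08 (adjusted p = 0.81). The footprint change of POLR1H beyond its RNA change, tested as described below, did not pass in SH2 (-0.85, SE 0.27, adjusted p = 0.0832). In SH3 POLR1H passed in neither measure, at 0.31 in RNA (adjusted p = 0.0667) and -0.22 in footprints (adjusted p = 0.501).

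**Figure D2:**
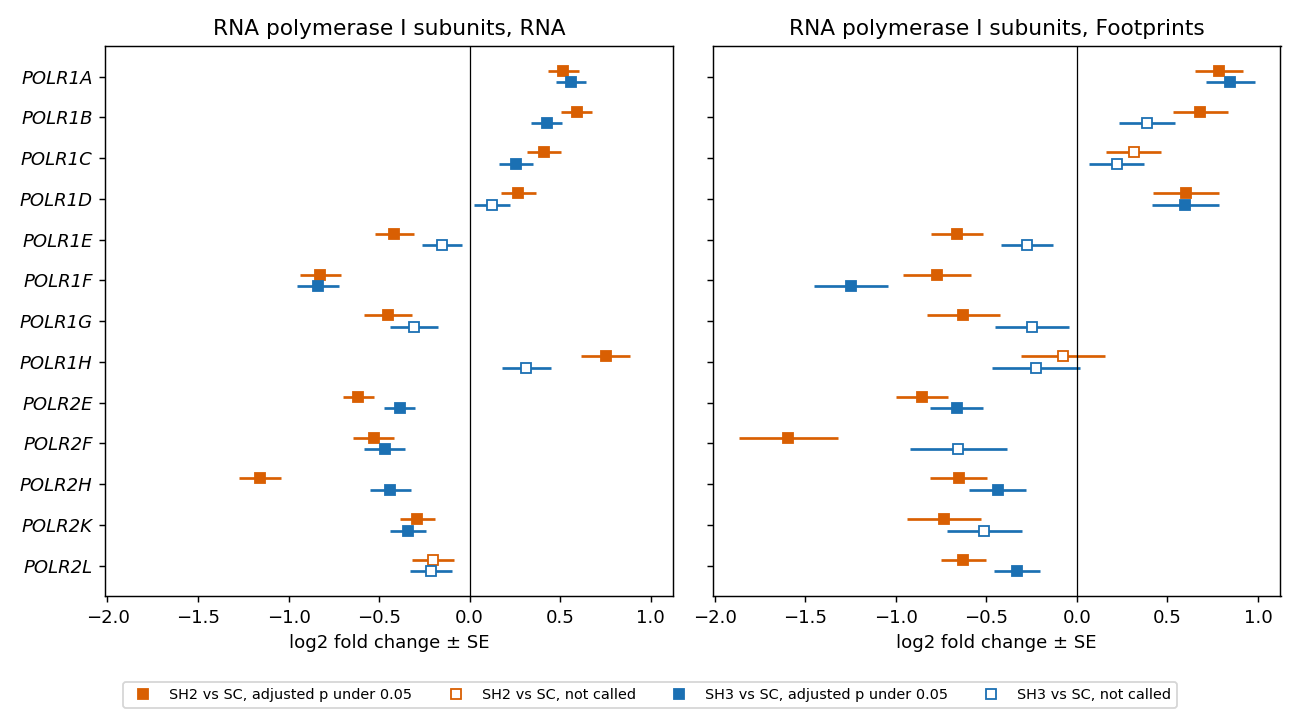
log2 fold change against SC of the 13 RNA polymerase I subunits, in input RNA and footprints, for SH2 and SH3. Error bars are 1 SE and filled points passed the adjusted p of 0.05, with POLR1A and POLR1B above 0 and POLR1E, POLR1F and the 5 shared subunits below 0.

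Among the initiation factors, UBTF, the architectural protein that keeps active ribosomal DNA open, did not pass in any of the 6 comparisons of RNA or footprints with all libraries in. UBTF RNA was 102, 115 and 117 CPM in SC, 114, 116 and 130.4 in SH2 and 109, 119 and 115 in SH3, and the groups overlapped. Its log2 change in RNA was 0.11 (SE 0.093, adjusted p = 0.325) in SH2 and 0.04 (SE 0.094, adjusted p = 0.746) in SH3. UBTF footprints were 89.9, 47.2 and 58.4 CPM in SC, 58.9, 52.4 and 62.2 in SH2 and 64.4, 90.7 and 66.6 in SH3. SC replicate 1 stood apart from the other 2 SC libraries, and the footprint SE of 0.21 was more than double that of RNA. The SH3 footprint log2 change of 0.17 (adjusted p = 0.56) was 0.49 without SC replicate 1 and then passed (adjusted p = 0.0435).

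RRN3, also known as TIF-IA, is the factor through which growth signals reach the polymerase. RRN3 RNA was 36.5, 34.8 and 33.9 CPM in SC, 29.8, 35.1 and 28.2 in SH2 and 39.0, 40.4 and 40.7 in SH3. SH2 reached into the SC range and SH3 lay above all other libraries. Neither hairpin passed against SC, with log2 changes of -0.18 (SE 0.10, adjusted p = 0.151, or 0.0214 without SH2 replicate 2) in SH2 and 0.19 (SE 0.10, adjusted p = 0.127) in SH3. The hairpins differed from each other, as given below. RRN3 footprints overlapped in all groups, at 46.6, 64.9 and 52.9 CPM in SC, 55.9, 50.8 and 44.7 in SH2 and 65.0, 57.2 and 51.2 in SH3. RefSeq names 4 pseudogenes of RRN3 and the treatment of reads that match several places is not stated, so the level of RRN3 is uncertain.

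TAF1D is a TBP-associated factor of the SL1 complex, and its introns host small nucleolar RNAs. TAF1D RNA was 49.9, 57.4 and 49.6 CPM in SC, 43.0, 46.7 and 32.7 in SH2 and 48.4, 47.4 and 48.5 in SH3. The SH2 libraries were below all SC libraries. RNA fell to 0.780 of control in SH2 (log2 -0.36, SE 0.12, adjusted p = 0.0209), and in SH3 the log2 change was -0.12 (adjusted p = 0.432). The SH2 call was lost without SC replicate 2 (adjusted p = 0.0831) or SH2 replicate 3 (adjusted p = 0.0548). TAF1D footprints were 79.7, 31.6 and 31.4 CPM in SC, 23.0, 29.1 and 21.4 in SH2 and 37.5, 30.8 and 29.4 in SH3. SC replicate 1 was more than double the other SC libraries and carried much of the difference. Footprints fell to 0.508 of control in SH2 (log2 -0.98, SE 0.30, adjusted p = 0.0144), and without SC replicate 1 the log2 change was -0.34 (adjusted p = 0.176). The call was also lost without SH2 replicate 1 (adjusted p = 0.0527) or SH2 replicate 3 (adjusted p = 0.0628). In SH3 the footprint log2 change of -0.59 (SE 0.30, adjusted p = 0.138) became 0.05 without that library, and -0.78 without SC replicate 2, where it passed (adjusted p = 0.0371). With no filter on low counts it was -0.59 and also passed (adjusted p = 0.0204).

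Of the other SL1 subunits and the termination factors, 6 genes in all, 2 rose and 1 fell in RNA in SH2, and 2 rose and none fell in SH3. In footprints 1 rose and none fell with each hairpin. TAF1C, a further SL1 subunit, rose in RNA by 0.57 (adjusted p = 0.000871) and 0.46 (adjusted p = 0.00523) on the log2 scale in SH2 and SH3. TBP, the TATA-binding protein that SL1 shares with the other polymerases' factors, had RNA log2 changes of -0.36 in SH2 (adjusted p = 0.0228) and 0.45 in SH3 (adjusted p = 0.00666). The SH2 call of TBP was lost without SC replicate 2 or 3 or SH2 replicate 1, with adjusted p up to 0.0971. TBP was picked out after its values were seen.

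NPM1 encodes nucleophosmin, the main component of the outer, granular part of the nucleolus and a chaperone for ribosomal proteins and histones. NPM1 RNA was 1649.5, 1725 and 1811 CPM in SC, 504, 864 and 661 in SH2 and 1187, 1412 and 1288 in SH3. The 3 groups were fully separate, with SH2 lowest. NPM1 RNA fell to 0.391 of control in SH2 (log2 -1.35, SE 0.15, adjusted p = 5.06e-06), the largest change of any of the 10 genes. In SH3 it fell to 0.750 of control (log2 -0.42, SE 0.15, adjusted p = 0.0321), a call that was lost when SC replicate 2 or 3 or SH3 replicate 1 or 3 was left out, with adjusted p up to 0.0860. NPM1 footprints were 2125, 2136 and 2274 CPM in SC, 1243, 814 and 841 in SH2 and 1873, 2289 and 1643 in SH3. Footprints fell to 0.443 of control in SH2 (log2 -1.17, SE 0.17, adjusted p = 4.73e-05), while SH3 overlapped SC (log2 -0.17, SE 0.16, adjusted p = 0.444). RefSeq names 50 pseudogenes of NPM1, none of which has an entry in the count table. How reads shared with them were assigned is not stated, so NPM1 levels are uncertain in that respect.

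NCL encodes nucleolin, an abundant RNA-binding protein of the dense part of the nucleolus whose introns carry 3 small nucleolar RNA genes (SNORA75, SNORD20 and SNORD82). TAF1D carries 8, the other members carry none, and 3.44% of 12486 protein-coding genes tested in RNA carry at least 1. The table had no entries for these small RNAs themselves. NCL RNA was 784, 806 and 889 CPM in SC, 942, 1035 and 1075 in SH2 and 859.6, 1087 and 1024 in SH3. SH2 lay above all SC libraries, and SH3 replicate 1 fell inside the SC range. NCL RNA rose 1.23-fold in SH2 (log2 0.30, SE 0.11, adjusted p = 0.0237), a call lost when SC replicate 1 or 2 or SH2 replicate 2 or 3 was left out, with adjusted p up to 0.100. In SH3 the log2 change of 0.26 (SE 0.11) had an adjusted p of 0.051, and of 0.0485 and 0.0306 without SC replicate 3 or SH3 replicate 1. NCL footprints were 2001, 1330.0 and 1552 CPM in SC, 1683, 1374 and 1537 in SH2 and 1709, 2775 and 1772 in SH3. SC replicate 1 and SH3 replicate 2 stood above the rest of their groups. The footprint log2 change was -0.09 in SH2 (adjusted p = 0.723) and 0.36 in SH3 (SE 0.19, adjusted p = 0.145). Without SC replicate 1 the SH3 value was 0.55 (adjusted p = 0.0229).

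NOLC1, also called Nopp140, and TCOF1, also called treacle, are related in build, both being long, acidic, heavily phosphorylated proteins that tie RNA polymerase I to the small nucleolar ribonucleoproteins. NOLC1 RNA was 289, 282 and 289 CPM in SC, 361, 382 and 400.4 in SH2 and 335, 386 and 375 in SH3, with both hairpins above all controls. NOLC1 RNA rose 1.33-fold in SH2 (log2 0.41, SE 0.089, adjusted p = 0.00121) and 1.27-fold in SH3 (log2 0.35, SE 0.089, adjusted p = 0.00454). NOLC1 footprints were 308, 289 and 259 CPM in SC, 393, 345 and 427 in SH2 and 408, 475 and 481 in SH3. The SC libraries were again the lowest. Footprints rose 1.36-fold in SH2 (adjusted p = 0.0133) and 1.59-fold in SH3 (adjusted p = 0.00119). The SH2 footprint call was lost without SC replicate 3 (adjusted p = 0.0649) or SH2 replicate 3 (adjusted p = 0.0603).

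TCOF1 is the gene mutated in most cases of Treacher Collins syndrome, and its protein recruits UBTF and the polymerase to the ribosomal DNA. TCOF1 RNA was 132, 158 and 155 CPM in SC, 151, 149 and 191 in SH2 and 174, 182 and 186 in SH3. SH3 lay above all SC libraries and SH2 overlapped both groups. TCOF1 RNA rose 1.22-fold in SH3 (log2 0.29, SE 0.11, adjusted p = 0.0404), and the log2 change in SH2 was 0.15 (adjusted p = 0.258). TCOF1 footprints were 111, 74.1 and 100.3 CPM in SC, 81.5, 77.6 and 93.9 in SH2 and 121, 123 and 139 in SH3. In SH3 footprints rose 1.33-fold (SE 0.16 on the log2 scale, adjusted p = 0.0497), while in SH2 the log2 change was -0.19 (adjusted p = 0.352). Both SH3 calls stand at the edge of the threshold, and the RNA call was lost when SC replicate 1 or 3 or any single SH3 replicate was left out, with adjusted p up to 0.175. The footprint call was lost without SC replicate 2 or 3 or any single SH3 replicate, with adjusted p up to 0.158.

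**Figure D3:**
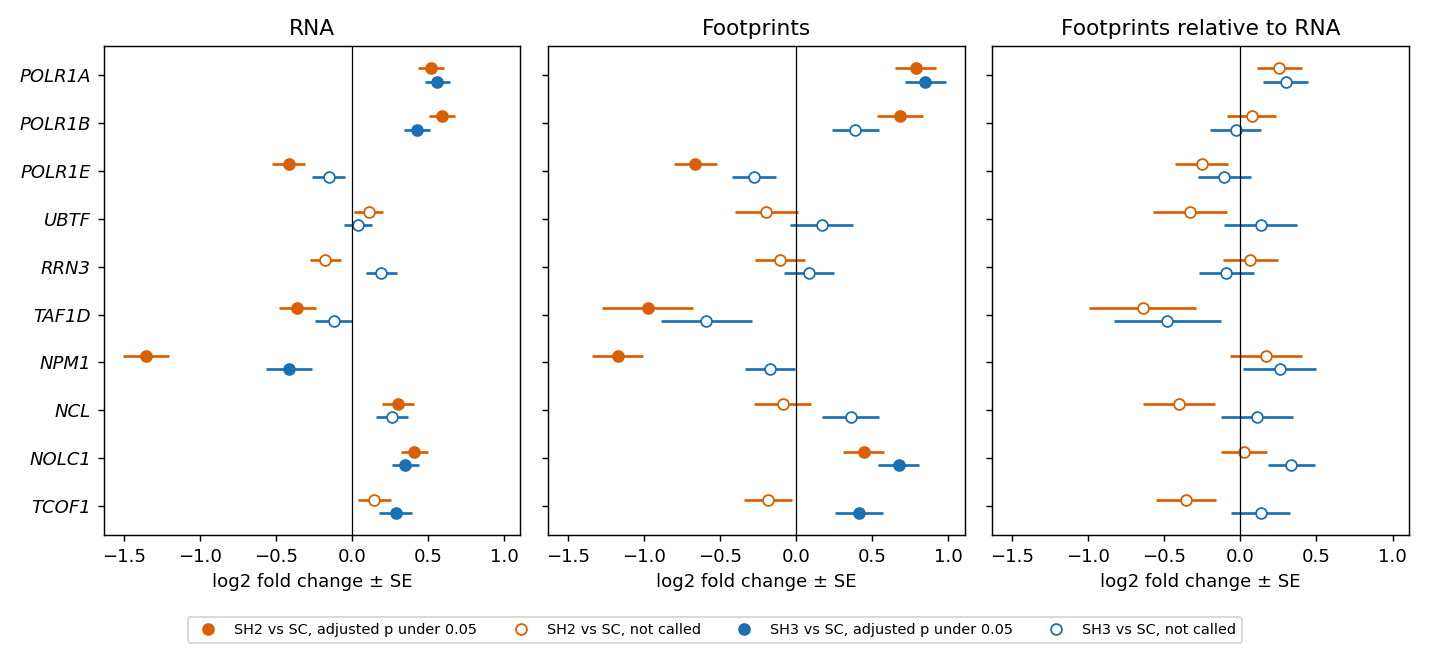
log2 fold change against SC of the 10 genes in input RNA and in footprints, for SH2 and SH3, with error bars of 1 SE. Filled points passed the adjusted p of 0.05, and NPM1 in SH2 is the lowest point in both measures.

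The direct comparison of SH2 with SH3 asks where the hairpins gave different levels. In RNA 2 of 10 genes passed and in footprints 2 of 10, all lower in SH2, against 39.3% of all genes tested in RNA, with SH2 above SH3 in 18.9% and below it in 20.4%, and 23.8% in footprints, with 12.1% above and 11.6% below. NPM1 was lower in SH2, with a log2 difference of -0.94 in RNA (SE 0.15, adjusted p = 0.000319) and of -1.003 in footprints (SE 0.17, adjusted p = 0.000506), with all SH2 libraries below all SH3 libraries in both. RRN3 RNA was lower in SH2, at -0.37 (SE 0.10, adjusted p = 0.0114), and its footprint difference of -0.19 did not pass (adjusted p = 0.45). TCOF1 footprints were lower in SH2, at -0.60 (SE 0.16, adjusted p = 0.0120), and its RNA difference of -0.14 did not pass (adjusted p = 0.334). The TCOF1 call was lost without SH2 replicate 2 (adjusted p = 0.0569) or SH3 replicate 3 (adjusted p = 0.0564). The differences of POLR1E did not pass, at -0.26 in RNA (SE 0.11, adjusted p = 0.0692) and -0.39 in footprints (SE 0.14, adjusted p = 0.0633). Over the 10 genes the median log2 difference between SH2 and SH3 was -0.09 in RNA and -0.38 in footprints, against 0.0047 and 0.0038 over all genes tested.

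Translational efficiency, the footprint change of a gene beyond its RNA change, was tested in 1 fit over all 18 libraries. With edgeR 0 of the 10 genes passed in SH2 against SC, in SH3 against SC or in SH2 against SH3, and 0, 1 and 2 of them had an unadjusted p under 0.05. DESeq2 also called 0 of 10 in each. The same edgeR test called 3.9% of 12531 genes in SH2, 0.686% in SH3 and 0.016% between the hairpins, so few calls stood in the background too. The lowest adjusted p among the 10 genes was 0.349, 0.354 and 0.334 in the 3 comparisons. The log2 changes in efficiency ran from -0.64 to 0.26 in SH2, from -0.48 to 0.34 in SH3 and from -0.51 to 0.16 between the hairpins, with SEs from 0.147 to 0.369. TAF1D was lowest in SH2 (-0.64, SE 0.35), and its value was 0.055 without the input and footprint libraries of SC replicate 1.

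A change in efficiency that misses the threshold does not show that RNA and footprints changed alike. In SH2 the log2 changes of RNA and of footprints had opposite signs in UBTF (0.11 and -0.20), NCL (0.30 and -0.09) and TCOF1 (0.15 and -0.19). These footprint changes had SEs of 0.21, 0.19 and 0.16, and none passed. Without SC replicate 1 the footprint changes of UBTF and NCL were 0.12 and 0.094, so their signs rest on that library. The ratio of the mean footprint level to the mean RNA level of POLR1A was 0.817 in SC, 0.984 in SH2 and 0.995 in SH3. For NPM1 it was 1.26, 1.43 and 1.49, with an efficiency log2 change in SH2 of 0.17 (SE 0.24, adjusted p = 0.774). For NCL the ratio was 1.97, 1.51 and 2.11, and for TCOF1 0.643, 0.515 and 0.707, in both cases lowest in SH2. The difference in efficiency between the hairpins was -0.51 for NCL (SE 0.24, adjusted p = 0.41) and -0.49 for TCOF1 (SE 0.20, adjusted p = 0.334), and neither passed.

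**Figure D4:**
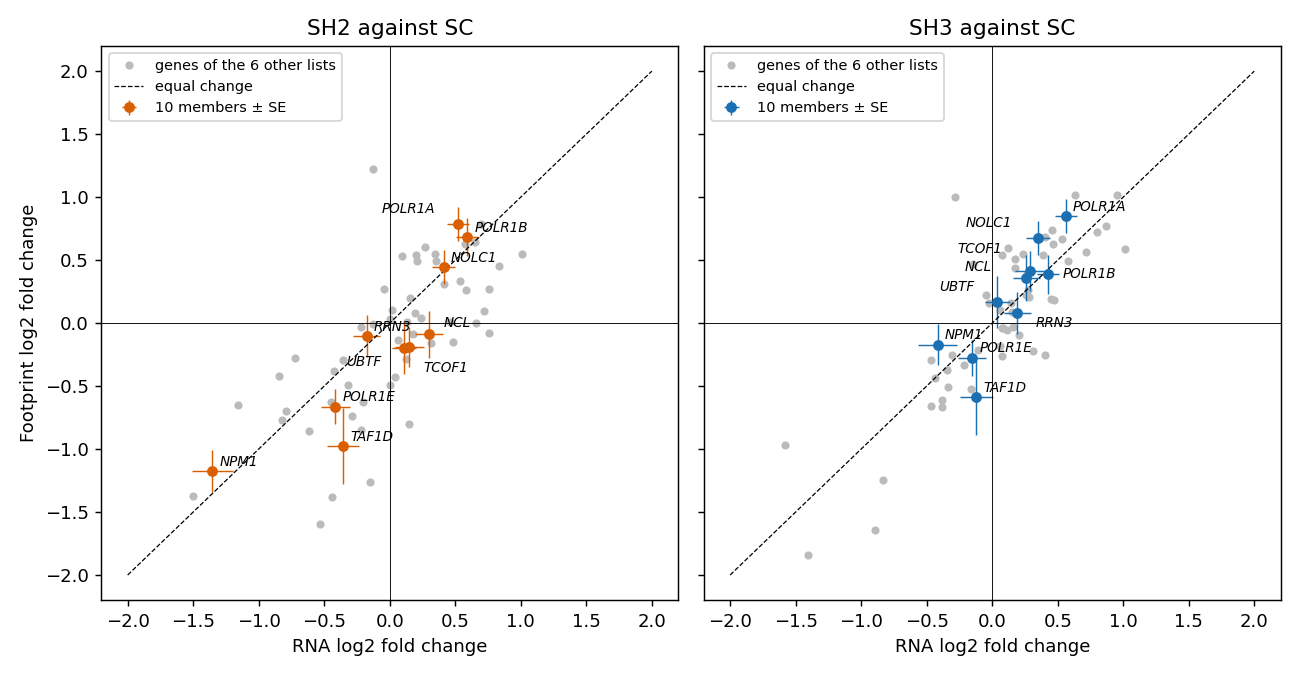
log2 fold change in footprints against log2 fold change in input RNA for the 10 genes, in SH2 and in SH3 against SC, with error bars of 1 SE. Points on the diagonal changed alike in both measures, with NPM1 in SH2 at -1.35 and -1.17 and POLR1A in SH3 at 0.56 and 0.85.

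Of 10 abundant nucleolar proteins outside the set, 2 rose and 2 fell in RNA with each hairpin. With 10 genes, these counts are near the share of all genes in each direction (31.1% and 30.4% in SH2, 27.8% and 25.2% in SH3). In footprints 3 rose and 1 fell in SH2 and 4 rose and 1 fell in SH3. MKI67, the proliferation antigen that coats mitotic chromosomes and lies in the nucleolus between divisions, fell with both hairpins, with log2 changes of -1.503 and -1.58 in RNA and -1.37 and -0.97 in footprints. TOP1, the topoisomerase that relieves supercoils on ribosomal DNA, rose in RNA by 0.35 and 0.63 and in footprints by 0.49 and 1.01. PARP1, the poly(ADP-ribose) polymerase, fell in RNA, at -0.42 and -0.47. NOP53, a processing factor of the large subunit, rose in footprints by 1.22 and 1.00 (adjusted p = 4.03e-05 and 0.000385) without a call in RNA, and its efficiency rose by 1.34 in SH2 (adjusted p = 0.00151) and 1.30 in SH3 (adjusted p = 0.00508). Leaving out 1 library ended the call for MKI67 footprints in SH3 (without SH3 replicate 2, adjusted p = 0.0867). It also ended the call for TOP1 footprints in SH2 without SC replicate 2, SC replicate 3 or SH2 replicate 1, with adjusted p up to 0.0923. The call for NOP53 efficiency in SH3 was lost without the input and footprint libraries of SC replicate 3 (adjusted p = 0.0505).

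Of 10 regulators of ribosomal DNA chromatin and transcription, 6 rose and 1 fell in RNA in SH2, and 7 rose and 1 fell in SH3, where 31.1% and 27.8% of all genes rose. In footprints it was 3 and 1 in SH2 and 6 and 1 in SH3, where 21% and 16.9% of all genes rose. Their median log2 change in RNA was 0.41 in SH2 and 0.43 in SH3. MYC, which drives ribosomal RNA synthesis, rose in RNA by 0.72 (adjusted p = 8.25e-05) and 0.80 (adjusted p = 5.09e-05), and in footprints its change was 0.10 (adjusted p = 0.563) in SH2 and 0.72 (adjusted p = 0.0006) in SH3. Its translational efficiency fell in SH2, at -0.63 (SE 0.17, adjusted p = 0.0390). The call was lost without any single SC or SH2 replicate, input and footprints removed together, with adjusted p of 0.0572 to 0.178. RNA of SIRT7, a deacetylase that activates RNA polymerase I, rose by 0.83 and 0.47, and that of BAZ2A, a subunit of the complex that silences ribosomal DNA, by 0.46 and 0.72. In footprints MAX, the partner of MYC, rose by 0.64 and 0.69, and KDM2B, a histone demethylase, fell, at -0.85 and -0.61. The SH3 call of KDM2B was lost without SC replicate 1 or 3 or SH3 replicate 2 or 3, with adjusted p up to 0.109.

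Of 11 subunits specific to RNA polymerase III, which makes the smallest ribosomal RNA and the transfer RNAs, 4 rose and 2 fell in RNA in SH2, and 6 rose and 2 fell in SH3. In footprints 1 rose and 4 fell in SH2, and 4 rose and 2 fell in SH3. POLR3C rose in RNA by 1.01 with each hairpin and in footprints by 0.55 and 0.59, and POLR3D RNA rose by 0.76 and 0.58. POLR3G, the form of its subunit found in stem and tumour cells, fell in RNA, at -0.44 and -0.89, and in footprints, at -1.38 and -1.64. Its footprint value in SH2 was -0.88 without SC replicate 1. The SH2 RNA call of POLR3G was lost without SC replicate 2 or 3 or SH2 replicate 1 or 3, with adjusted p up to 0.101. The SH3 footprint call of POLR3C was lost without SH3 replicate 2 (adjusted p = 0.0673).

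Of 7 subunits specific to RNA polymerase II, which makes mRNA, 1 rose and 2 fell in RNA in SH2, and none rose and 1 fell in SH3. In footprints none rose and 2 fell in SH2, and 1 rose and none fell in SH3. POLR2I, a small subunit with a role in proofreading, fell in RNA, at -0.32 in SH2 (adjusted p = 0.00483) and -0.34 in SH3 (adjusted p = 0.00367).

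Among themselves, the 10 genes did not follow 1 course across the libraries. In RNA, POLR1A and NOLC1 had a Pearson correlation of 0.948 over the 9 libraries and NCL and NOLC1 of 0.927, while POLR1B and NPM1 stood at -0.783. In footprints, UBTF and NCL were at 0.916, POLR1A and NOLC1 at 0.910, and POLR1B and POLR1E at -0.775. These values describe 9 libraries that share 3 treatments and, in footprints, differ in depth. The mean of the 10 genes, each centred on its own log2 level, was highest in SH3 replicate 2 in both measures, at 0.16 in RNA and 0.33 in footprints. The genes with the most similar course to that mean in RNA were PRPF4 (r = 0.986), KPNB1 (0.961), AFG3L2 (0.961), CAMK2D (0.957) and PATZ1 (0.954), among 9120 genes with a mean of at least 10 CPM. In footprints they were KRI1 (r = 0.990), ZCCHC8 (0.977), PRKCA (0.959), SFPQ (0.959) and UBL4A (0.953), among 8285 genes.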

How the data were processed

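Input RNA and ribosome footprints of MDA-MB-231 cells were analysed from 1 table of 17017 genes. Its raw whole-number counts per gene and library were deposited by the authors. The deposited normalized signal is, per the file headers, DESeq2-normalized, and the deposited log2 fold changes and p-values are the authors' own comparisons. Neither was used for the tests. Per the submitters' processing notes, Bowtie 1.2.2 and DESeq2 were used. The genome build, annotation and counting tool are not given in the sources used here.

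The deposited counts were tested in edgeR 4.0.16 (R 4.3.3): filterByExpr, TMM scaling, glmQLFit and glmQLFTest, two-sided, with Benjamini-Hochberg adjustment over all genes tested and a threshold of 0.05. RNA and footprints were fitted separately over 9 libraries each, and translational efficiency as an interaction over 18. SEs were derived from each fold change and its F statistic. CPM values are TMM-scaled within a library kind and not per length, so levels are not compared between genes. The spread between replicates was 11.6% in RNA and 15.1% in footprints (edgeR's common biological coefficient of variation), and replicates differed by more than counting noise (chi-square per degree of freedom 3.38 to 56.3). On counts simulated for SH2 against SC, changes of 1 on the log2 scale were recovered in 94% of genes in RNA, 85% in footprints and 59% in efficiency. The simulation gave every gene the same spread in both kinds of library and changed fewer genes than were called in these data. Its rates therefore do not give the recovery for the members, many of which had smaller changes.

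Replicate numbers come from the labels. Same-numbered SC and SH2 libraries deviated together within each kind (correlations 0.295 to 0.358 in RNA and 0.249 to 0.297 in footprints, each the highest between these groups for its library), and the block changed no member's call in that comparison. What a number shares between RNA and footprints is in doubt: in SC, RNA replicate 1 went with footprint replicate 2 (0.576) and RNA replicate 2 with footprint replicate 1 (0.458), in SH2 likewise (0.563 and 0.497), while the same numbers stood at -0.490, -0.460, -0.304 and -0.313. The block alternatives of efficiency use a number across both kinds. So do its leave-outs, which removed the same-numbered input and footprint libraries of a treatment together.

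The members and gene lists were chosen with earlier results of these data known. Named outside the members are FBL, cell line markers, the genes of each list called with both hairpins in 1 direction (at most 3 per list and measure, by size of change), and the 5 genes most alike in each measure by Pearson correlation of log2 CPM (prior count 3). Of these, 1 list gene is not reported here. POLR1C, POLR1G, POLR1H, TBP and the further values of MYC were added after their values were seen. Alternatives tried were DESeq2 1.42.0, DESeq2's size-factor scaling in edgeR, plain library totals, no filter, a replicate block, a fit of only the groups compared, and leaving out each library in turn. For efficiency, the same-numbered input and footprint libraries of a treatment were left out together. Start site sequences are from RefSeq (GRCh38.p14).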

Additional observations from a re-analysis of the deposited data

Results flagged for a closer look

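Of the 10 genes, 3 differed between SH2 and SH3 by the direct test of the difference (edgeR, adjusted over all genes). By measure it was 2 of 10 in RNA, against 39.3% of all genes tested, and 2 of 10 in footprints, against 23.8%. The members thus passed no more often than other genes. NPM1 was lower in SH2 in RNA, at a log2 difference of -0.94 (SE 0.15, adjusted p = 0.000319), and in footprints, at -1.003 (SE 0.17, adjusted p = 0.000506), with all 3 SH2 libraries below all 3 SH3 libraries each time. RRN3 differed in RNA at -0.37 (SE 0.10, adjusted p = 0.0114), again with separate groups. TCOF1 differed in footprints at -0.60 (SE 0.16, adjusted p = 0.0120), also with separate groups. That TCOF1 call was lost without SH2 replicate 2 (adjusted p = 0.0569) or SH3 replicate 3 (adjusted p = 0.0564).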

How the results depend on the processing

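The calls of POLR1A with both hairpins in both measures, of POLR1B and NOLC1 in RNA with both hairpins, of POLR1B footprints in SH2, of NOLC1 footprints in SH3, and of POLR1E and NPM1 in SH2 in both measures held under all 12 alternatives, and under a further one run for SH2. So did the hairpin differences of NPM1 and of RRN3 RNA. With library totals unscaled, NPM1 RNA in SH3 (-0.33, adjusted p = 0.0779) and TAF1D RNA in SH2 (-0.27, 0.0869) lost their calls, and RRN3 RNA in SH3 (0.28, 0.0322), NCL RNA in SH3 (0.35, 0.0127), POLR1B footprints in SH3 (0.46, 0.0300) and POLR1E footprints between hairpins (-0.45, 0.0273) gained one. With no filter, NCL RNA in SH3 (adjusted p = 0.0490), TAF1D footprints in SH3 (0.0204) and NCL footprints between hairpins (0.0157) gained one. TCOF1 RNA in SH3 had an adjusted p of 0.0629 with DESeq2's size-factor scaling and 0.0572 with DESeq2, and TCOF1 footprints in SH3 had 0.061 in the fit of only the groups compared. That fit called 4 members between the hairpins in footprints in place of 2, with POLR1E (0.0401) and NCL (0.0402) added. Leaving out 1 library, members called ranged from 5 to 7 (RNA, SH2), 3 to 4 (RNA, SH3), 4 to 6 (footprints, SH2), 2 to 5 (footprints, SH3) and 1 to 2 (footprints, SH2 against SH3).

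Some changes that had not passed the test changed sign. With library totals unscaled, the SH2 efficiency changes were -0.0023 (POLR1B), -0.011 (RRN3) and -0.051 (NOLC1). Leaving out 1 library, RNA log2 changes ran from -0.037 to 0.075 (UBTF, SH3), -0.00033 to 0.20 (TCOF1, SH2), -0.029 to 0.13 (NCL, between hairpins) and -0.064 to 0.0067 (POLR1A, between hairpins). Footprint changes ran from -0.36 to 0.12 (UBTF, SH2), -0.0030 to 0.49 (UBTF, SH3), -0.21 to 0.094 (NCL, SH2), -0.20 to 0.021 (RRN3, SH2), -0.0092 to 0.21 (RRN3, SH3) and -0.82 to 0.047 (TAF1D, SH3). For efficiency, each leave-out removed the same-numbered input and footprint libraries of a treatment together. SH2 efficiency changes then ran from -0.023 to 0.24 (POLR1B), -0.050 to 0.18 (RRN3), -0.046 to 0.10 (NOLC1), -0.53 to 0.062 (UBTF), -0.91 to 0.055 (TAF1D) and -0.23 to 0.48 (NPM1). SH3 efficiency changes ran from -0.75 to 0.21 (TAF1D), -0.23 to 0.025 (POLR1E), -0.064 to 0.52 (UBTF), -0.22 to 0.015 (RRN3), -0.096 to 0.34 (NCL), -0.064 to 0.35 (TCOF1) and -0.13 to 0.13 (POLR1B). Between hairpins they ran from -0.48 to 0.23 (NPM1) and -0.12 to 0.041 (POLR1A). The cause was not tested.

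Beyond SC and SH2, whose numbers pair within a library kind, numbers were not shown to pair. Over all 3 treatments same-numbered deviations correlated at -0.0834 to 0.435 in RNA, with 7 of 9 pairs over 0.1, and at -0.117 to 0.314 in footprints, with 5 of 9, and not every library correlated best with its own number. With the replicate number as a block, NCL RNA in SH3 (adjusted p = 0.0234), POLR1B footprints in SH3 (0.0475) and POLR1E footprints between hairpins (0.0363) gained a call, and no member lost one. A block in a fit of only SC and SH2, chosen after seeing the data, called the same number of members (7 in RNA and 6 in footprints), and 8362 (RNA) and 5129 (footprints) of all genes against 7805 and 4576. With the block over all 3 treatments, calls over all genes in SH3 were 7396 against 6732 (RNA) and 4269 against 3719 (footprints). The block fits of efficiency called 0 members.

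Over all genes, efficiency calls ranged from 110 to 910 in SH2 (489 as reported), 10 to 355 in SH3 (86) and 0 to 229 between hairpins (2), with DESeq2 giving the most.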

Other observations

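In the authors' deposited table the columns of the measure named RD are identical for SH2 and SH3 in all 17017 genes, in log2 fold change, p-value and adjusted p-value. Across 12531 genes, which are not independent replicates, their log2 fold changes correlated at 0.858 with the efficiency changes of SH3 computed here and at 0.465 with those of SH2, and the median absolute difference was 0.0047 and 0.261. These columns were not used. Which hairpin they belong to is not stated.

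POLR3B, which encodes the second largest subunit of RNA polymerase III, had opposite changes with the hairpins: its RNA log2 change was -0.79 in SH2 (adjusted p = 7.53e-06) and 0.87 in SH3 (adjusted p = 5.46e-06), and its footprint change -0.70 (adjusted p = 0.00147) and 0.77 (adjusted p = 0.000737). The difference between the hairpins passed in RNA (-1.66, adjusted p = 5.77e-08) and in footprints (-1.47, adjusted p = 8.55e-06). POLR3F RNA fell in SH3, at a log2 change of -1.40 (adjusted p = 8.33e-06), and in SH2 its change was -0.13 (adjusted p = 0.468). Both genes were picked out after their values were seen.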
